A study of Homo sapiens with 47 samples.

Results

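This report is about the integrin and laminin subunit genes of human pluripotent cells on their way to posterior neural and neural crest progenitors. The members were a named list of 33 genes, 10 laminin chains and 23 integrin chains (15 alpha and 8 beta), taken by gene symbol from the 58051 Ensembl genes of each library. All 33 matched 1 identifier each in GENCODE 29 (GRCh38), and measured values played no part in the matching. RNA was sequenced in 47 libraries of WA09 (H9), an established human embryonic stem cell (hESC) line that was the only line used here. The undifferentiated cells (t0) grew without feeders on Matrigel, a basement membrane extract, in mTESR1. For 36 h they were then held in N2B27 without vitamin A, with CHIR-99021 (a WNT pathway agonist), rhFGF2, AGN193109 (a retinoic acid receptor blocker) and Y-27632 (a ROCK inhibitor), which gave neuromesodermal progenitor (NMP)-like cells. The 36 h cells were split 1:6 into the same agents and passaged every 3-4 days, and each passage from P1 to P10 was collected as a whole culture, which the labels call neural progenitors. Each time point held 3 differentiations, numbered 1 to 3, with 2 at P9, which made 35 whole-culture libraries. A further 12 libraries, 3 in each group, came from epithelial (EPI, pre-neural progenitor) and mesenchymal (MES, neural crest) cells that TrypLE had detached selectively from the P5 and P8 cultures, so they are enriched and not pure.

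Laminins are trimers of 1 alpha, 1 beta and 1 gamma chain and form the polymer sheet on which a basement membrane is built. The alpha chain sets most of the receptor binding. Integrins are pairs of an alpha and a beta chain that bind the matrix outside and the actin cytoskeleton inside the cell, and the alpha chain largely sets whether a pair reads laminin, collagen, or ligands with the Arg-Gly-Asp (RGD) motif such as fibronectin and vitronectin. Neural crest cells leave an epithelium by crossing a basement membrane and then move over fibronectin-rich matrix, and cultured pluripotent cells attach to laminin mainly through the pair of the alpha 6 and beta 1 chains.

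Library totals ran from 13029491 to 64082859 expected counts, with a median of 47292229. Levels are given below as TPM, a share of all transcripts in the library, which is scaled by transcript length and so can be set side by side for different genes. Tests used expected counts and edgeR's quasi-likelihood model with the differentiation number as a block. A gene was called when its Benjamini-Hochberg adjusted p was under 1%, its change at least 2-fold and its mean over the compared libraries at least 100 normalized counts. The labels were set against fixed marker lists. POU5F1 and NANOG together held 1662 to 1854 TPM at t0. At 36 h they held 1591, 1094 and 595 TPM in differentiations 1, 2 and 3. They held at most 1.12 TPM in the whole cultures of P5 and P8, with up to 1.60 TPM in the fractions. The NMP-like list (TBXT, WNT3A and FGF8) summed to 79.3, 497 and 560 TPM in the same 36 h libraries. Its mean at t0 was 0.76 TPM. The 36 h library of differentiation 1 was thus lowest on this list and highest for POU5F1 and NANOG. At P2 the NMP-like list held 360 TPM in differentiation 1 and 56.1 and 23.8 TPM in the others. The summed epithelial pre-neural list (SOX2, CDX2, NKX1-2, EPCAM and CDH1) was 464 to 721 TPM in the P5 EPI libraries and 87.4 to 255 TPM in the P5 MES libraries, while the 9 neural crest markers went the other way, at 86.0 to 337 TPM in EPI and 529 to 756 TPM in MES. At P8 the levels of the fractions overlapped on both lists, but within each of the 3 cultures EPI was higher on the epithelial list and MES on the neural crest list. Some whole-culture libraries stood apart from others of their label. The P1 library of differentiation 1 held 889.8 TPM of POU5F1 and NANOG and 7.57 TPM of paraxial mesoderm markers, against 5.07 to 18.8 TPM and 359 to 363 TPM in the other two, and its P2 library held 305 TPM of the latter against 67.0 to 83.2 TPM. The 36 h library of differentiation 3 held 631 TPM of paraxial mesoderm markers against 8.81 TPM in differentiation 1. The P10 library of differentiation 1 held 427 TPM of the epithelial list and 230.4 TPM of the neural crest list, near the P8 libraries, whereas the other late libraries held 5.24 to 16.7 TPM and 1051 to 1203 TPM. Skeletal muscle markers summed to at most 0.14 TPM in every library, and blood and platelet markers to at most 1.55 TPM. In bulk RNA, fewer cells of a type and less RNA per cell cannot be told apart.

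Of the 33 members, 24 reached 10 TPM in at least 1 library, 14 were at or above 1 TPM in every library, and 4 stayed under 1 TPM throughout. The count filter passed 31 members for the whole cultures and 29 for the fractions. A low gene could pass through a single group where it was high.

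The shares of single chains in their class were set side by side at t0 and P8. At t0, LAMA5 held 59.3% ± 7.01 (SD, n = 3) of the summed laminin alpha TPM and LAMA1 held 38.2% ± 6.97 (SD, n = 3). By P8 the order was the other way round, with 57.2% ± 4.04 (SD, n = 3) for LAMA1 and 26.1% ± 7.55 (SD, n = 3) for LAMA5. Among integrin alpha chains, ITGA6, the laminin-binding chain of pluripotent cells, held 45.1% ± 3.24 (SD, n = 3) at t0 and 7.33% ± 2.85 (SD, n = 3) at P8. ITGAV and ITGA5, which bind RGD ligands, moved from 8.05% ± 0.738 (SD, n = 3) and 4.41% ± 0.452 (SD, n = 3) at t0 to 23.2% ± 5.32 (SD, n = 3) and 21.7% ± 1.53 (SD, n = 3) at P8. ITGB1, the shared beta chain, remained the most abundant beta mRNA in group means throughout, except at P7 where ITGB5 was marginally above it, with 68.4% ± 2.62 (SD, n = 3) at t0 and 54.9% ± 10.9 (SD, n = 3) at P8. The laminin beta shares overlapped, with LAMB1 at 44.0% ± 1.47 (SD, n = 3) at t0 and 50.6% ± 8.56 (SD, n = 3) at P8, and LAMC1 made up most of the gamma class at both, with 91.2% ± 1.18 (SD, n = 3) and 97.7% ± 1.73 (SD, n = 3). These shares are a description and were not tested.

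**Figure D1:**
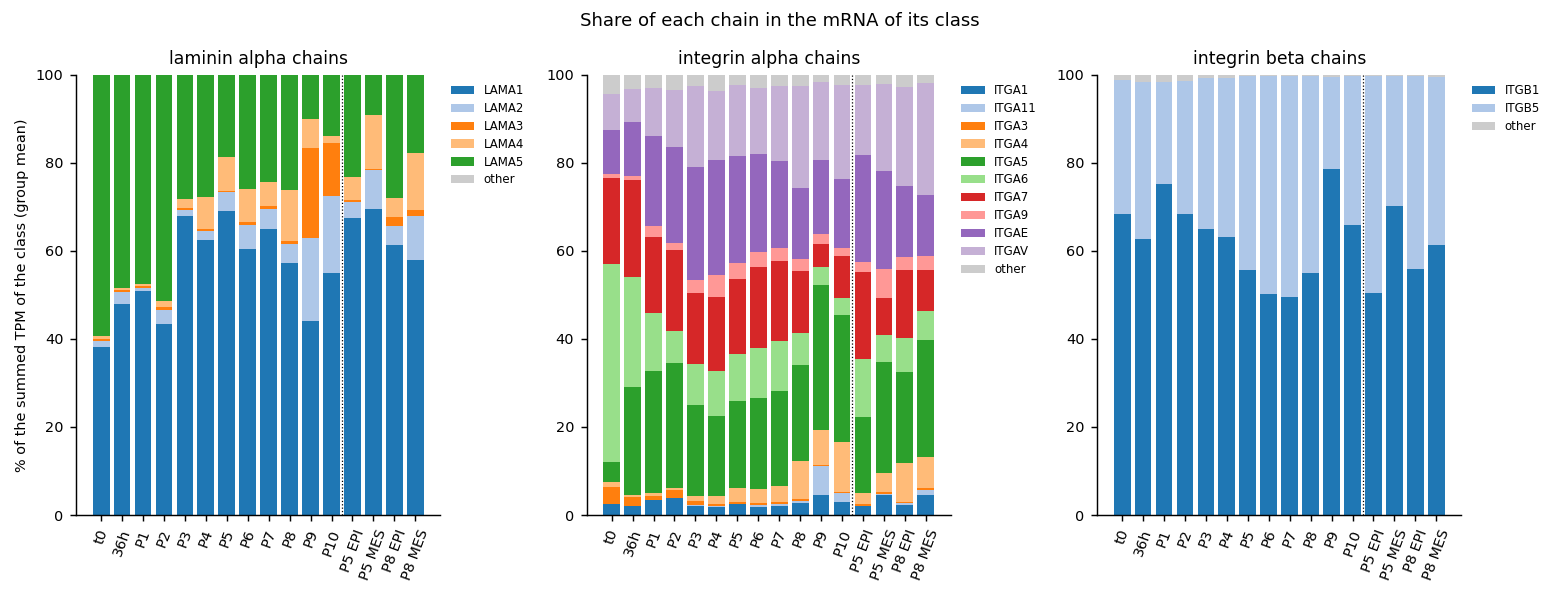
Stacked bars show the mean share of each chain in the summed TPM of its class, in percent (y axis), for the whole cultures from t0 to P10 and, right of the dotted line, the EPI and MES fractions (x axis); each bar is a mean of 3 libraries, 2 at P9, and chains that never reach 3% are pooled as other. LAMA5 gives way to LAMA1 among laminin alpha chains, and the ITGA6 share goes from 45.1% at t0 to 7.33% at P8.

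Over the whole span from undifferentiated cells to P8, 13 of the 31 members tested changed. This comparison was added after the data had been seen. The 10 that rose were LAMA1, LAMA2, LAMA4, LAMB1, LAMB2, ITGA4, ITGA5, ITGA8, ITGAV and ITGB5, against 7.62% of all 21750 genes tested that were called higher. The 3 that fell were ITGA2B, ITGA3 and ITGA6, against 7.6% of all genes called lower. The median log2 fold change was 1.26 over the members and 0.0215 over all genes. Neural crest markers summed to 38.0 to 39.7 TPM at t0 and 133 to 748 TPM at P8. Of these 9 markers 6 were called higher and 0 lower, and their part in the member calls was not tested. Leaving out all libraries of differentiation 2, or all of differentiation 3, left 5 members called each time, with 9.2% and 11.3% of genes called. Without differentiation 1, 17 members and 16.3% of genes were called. LAMA4 was lost and LAMC1, LAMC3, ITGB1, ITGA9 and ITGA11 were added. With the compared groups alone, 12 members and 17.9% of genes were called, without ITGAV and ITGA4 and with ITGB4. ITGA2B, ITGA5 and LAMB1 were called under each of the 3 omissions.

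**Figure D2:**
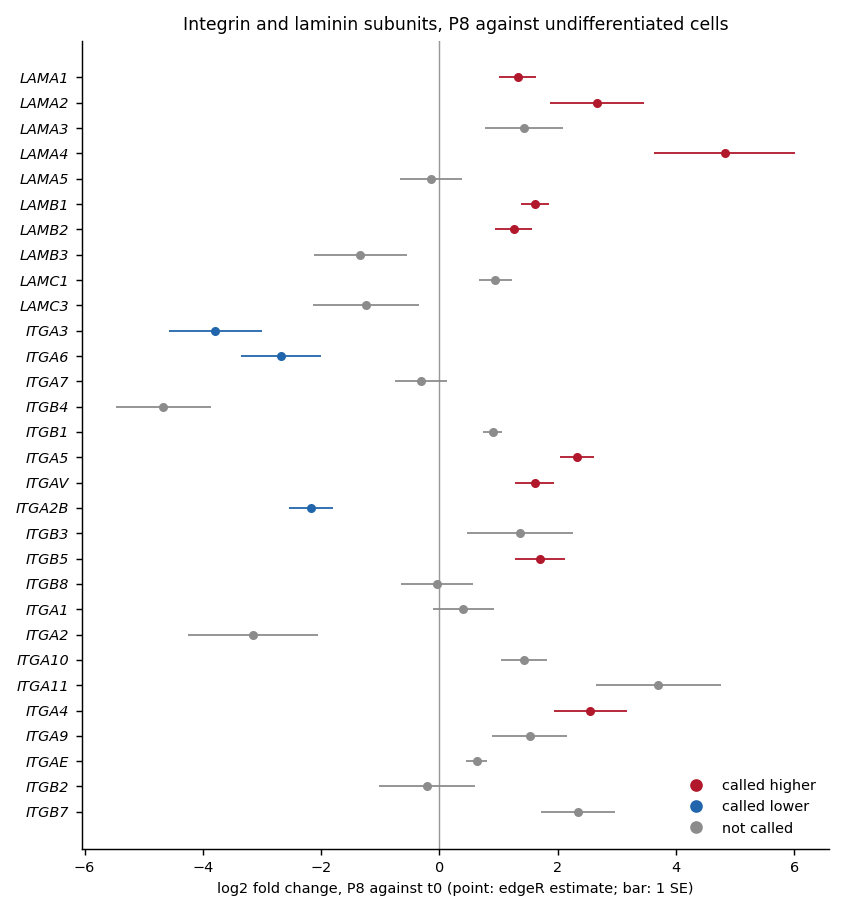
Points give the edgeR log2 fold change of P8 against t0 (x axis) with bars of 1 SE for 30 tested members (y axis, in order of role), from 3 libraries a group; ITGA8 is left out because it was at 0 at t0. Red points were called higher, blue points lower and grey points were not called; ITGB4 lies furthest left at -4.67 but had too few counts for a call.

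LAMA1 (GRCh38 chromosome 18, 6941744 to 7117814, minus strand), the alpha chain of the earliest embryonic basement membranes, was the most abundant laminin alpha mRNA in group means apart from t0, 36 h and P2, where LAMA5 was. Its level at t0 was 35.5, 29.7 and 32.8 TPM in differentiations 1, 2 and 3, and 69.1, 105 and 95.1 TPM at P8. All P8 libraries lay above all t0 libraries for LAMA1, and the log2 fold change was 1.32 ± 0.31 (SE; adjusted p = 0.00102). LAMA5, the main alpha chain of most mature basement membranes, was at 40.0, 60.4 and 54.5 TPM at t0, 22.2, 20.6 and 10.6 TPM at P5 and 32.5, 57.0 and 32.6 TPM at P8. Its P5 libraries were all below those of t0, those of P8 overlapped t0, and the log2 fold change from t0 to P8 was -0.14 ± 0.53 (SE; adjusted p = 0.844). LAMA4, a chain typical of mesenchyme and vessel walls, was at 0.71, 0.57 and 0.74 TPM at t0, 0.49, 0.25 and 0.19 TPM at 36 h and 2.35, 14.0 and 6.89 TPM at P5. Every P5 library was above every 36 h library, and the log2 fold change between them was 5.68 ± 1.29 (SE; adjusted p = 0.00165). At P8 LAMA4 stood at 11.2, 3.97 and 41.8 TPM, a wide spread in which differentiation 3 was highest. In the P8 fractions it was at 6.95, 3.23 and 7.4 TPM in EPI and 53.65, 6.5 and 17.35 TPM in MES. In differentiation 3 the whole culture was above both of its fractions, and within MES differentiation 1 was highest. Between t0 and P8 LAMA4 rose by 4.82 ± 1.19 (SE; adjusted p = 0.00179) on the log2 scale. The summed markers of endothelium, where LAMA4 is abundant, were 35.3 to 76.5 TPM at 36 h, 1.43 to 2.00 TPM at P5, 49.3 to 56.5 TPM at t0 and 2.18 to 10.4 TPM at P8, and within the P5 cultures they were 0.85 to 1.51 TPM in EPI and 1.79 to 5.34 TPM in MES. Neural crest markers summed to 48.5 to 211 TPM at 36 h and 182 to 534 TPM at P5. At t0 they held 38.0 to 39.7 TPM, and at P8 133 to 748 TPM. The part of either list in the LAMA4 values was not tested.

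LAMA2, the alpha chain of muscle and peripheral nerve basement membranes, was at 1.08, 1.61 and 0.76 TPM at t0 and 5.91, 5.04 and 9.47 TPM at P8. The groups did not overlap and the log2 fold change was 2.66 ± 0.79 (SE; adjusted p = 0.00733). That call was lost without the differentiation block (adjusted p = 0.0138). LAMA3, the alpha chain of epidermal laminin, was at 0.26 to 0.38 TPM at t0 and 0.43 to 1.74 TPM at P8 and is taken up again with the late passages.

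LAMB1, LAMB2 and LAMC1 were the main beta and gamma chains. LAMB1 (GRCh38 chromosome 7, 107923799 to 108003255, minus strand), the beta chain of embryonic laminins, was at 44.9, 43.8 and 45.6 TPM at t0, 73.0, 77.8 and 108 TPM at 36 h and 104, 182 and 217 TPM at P8. The t0 libraries lay within 2 TPM of each other and below all of the later ones named here, and the log2 fold change at P8 was 1.62 ± 0.23 (SE; adjusted p = 4.63e-06). In the 36 h step alone LAMB1 was at 0.78 ± 0.23 (SE; adjusted p = 0.0239) and was not called. LAMB2, which can take the place of LAMB1 in the trimer, was at 52.8, 56.4 and 60.6 TPM at t0 and 105, 245 and 147 TPM at P8. These groups did not overlap either, and the log2 fold change was 1.26 ± 0.31 (SE; adjusted p = 0.00173). LAMB3, the beta chain of epidermal laminin, stayed at or under 0.63 TPM in every library.

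LAMC1, the gamma chain of nearly all basement membrane laminins, was at 78.6, 70.2 and 68.3 TPM at t0 and 119, 209 and 139 TPM at P8. The groups did not overlap, but the log2 fold change of 0.94 ± 0.28 (SE; adjusted p = 0.00785) stayed short of 2-fold. LAMC3, a gamma chain of restricted distribution, was at 11.1, 12.6 and 19.4 TPM at P5 and 5.10, 1.39 and 3.16 TPM at P8. All P8 libraries were below all P5 libraries, with a log2 fold change of -2.11 ± 0.92 (SE; adjusted p = 0.311), which was not called. Without the libraries of differentiation 1 it was called, at -2.80 ± 0.48 (SE; adjusted p = 0.00983 by edgeR).

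**Figure D3:**
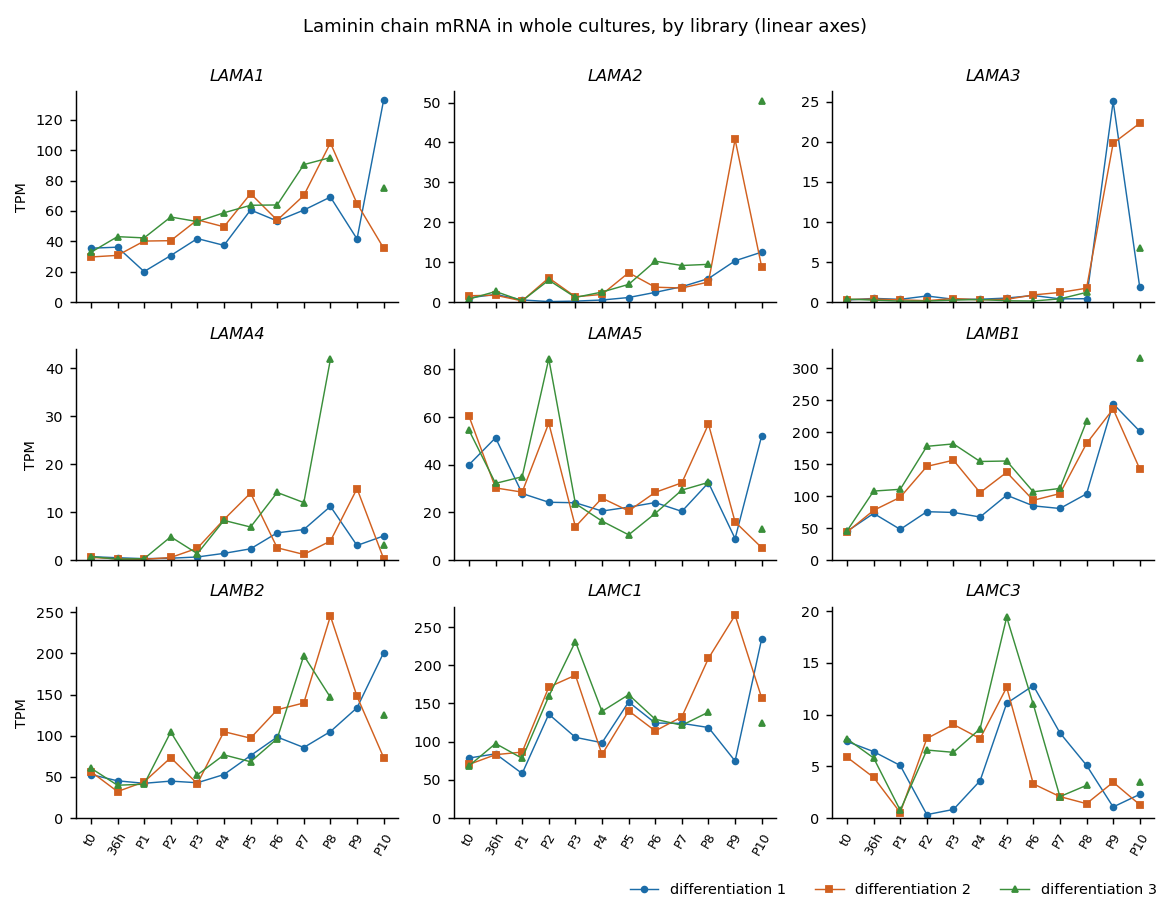
Each panel plots the TPM of 1 laminin chain (y axis, linear and starting at 0) against the time points t0 to P10 (x axis), with 1 line for each of the 3 differentiations; the third has no P9 library. LAMB1 is at 43.8 to 45.6 TPM at t0 and 104 to 217 TPM at P8, and LAMA3 is at 1.74 TPM or less up to P8 and at 25.1 and 19.8 TPM at P9.

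Of the alpha chains that bind laminin, ITGA3 and ITGA6 fell and ITGA7 was not called. ITGA6 (GRCh38 chromosome 2, 172427354 to 172506282, plus strand) was at 130.4, 104 and 139 TPM at t0, 88.5, 58.3 and 35.01 TPM at 36 h, 31.8, 21.7 and 16.9 TPM at P5 and 23.1, 19.3 and 22.8 TPM at P8. The 36 h values lay between those of t0 and P5, and the log2 fold change from t0 to P8 was -2.67 ± 0.67 (SE; adjusted p = 0.00205). The step from t0 to 36 h, at -1.22 ± 0.64 (SE; adjusted p = 0.24), and the step from 36 h to P5, at -1.42 ± 0.65 (SE; adjusted p = 0.0949), were each not called. The second step was called without differentiation 1 (-1.47, adjusted p = 0.00873 by edgeR) and with the compared groups alone (-1.40, adjusted p = 0.00388). ITGA3, another laminin-binding chain, was at 11.1, 11.5 and 9.02 TPM at t0, 5.74, 7.06 and 1.28 TPM at 36 h, 1.44, 0.57 and 0.62 TPM at P5 and 0.79, 1.88 and 1.27 TPM at P8. The 36 h library of differentiation 3 was near the P5 libraries in TPM, the groups did not overlap in normalized counts, and the log2 fold change from 36 h to P5 was -2.81 ± 0.76 (SE; adjusted p = 0.00668). Between t0 and P8 it was -3.79 ± 0.79 (SE; adjusted p = 0.000362).

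ITGB4, the beta partner of the alpha 6 chain in hemidesmosomes, was at 3.23, 2.63 and 2.71 TPM at t0 and 0.68, 0.16 and 0.45 TPM at P8. Its log2 fold change of -4.67 ± 0.81 (SE; adjusted p = 4.98e-05) passed the p and fold thresholds and missed the level minimum, at a mean of 87.3 normalized counts. ITGA7, a laminin-binding chain best known in muscle, was at 40.1, 55.3 and 66.1 TPM at t0 and 39.3, 50.5 and 40.1 TPM at P8. These groups overlapped, and the log2 fold change was -0.31 ± 0.43 (SE; adjusted p = 0.574). The skeletal muscle markers MYOD1, MYF5 and MYOG did not pass the count filter. ITGB1, the beta partner of ITGA3, ITGA6, ITGA7 and many other alpha chains, was at 274, 256 and 240.2 TPM at t0 and 365, 593 and 648 TPM at P8. Each P8 library was above each t0 library, yet the log2 fold change of 0.90 ± 0.16 (SE; adjusted p = 5.2e-05) was under 2-fold and so not called.

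The earliest call was in an RGD-binding integrin. ITGA5, the alpha chain of the main fibronectin receptor (GRCh38 chromosome 12, 54395261 to 54419460, minus strand), was at 11.4, 12.4 and 12.5 TPM at t0 and 39.7, 46.0 and 86.1 TPM at 36 h. Every 36 h library was at least 3-fold above every t0 library, and the log2 fold change of 2.09 ± 0.28 (SE; adjusted p = 2.97e-05) made ITGA5 the only member called in this step, against 1.31% of all genes called higher and 1.35% called lower. The call was lost without the libraries of differentiation 3 (log2 fold change 1.68, adjusted p = 0.0226 by edgeR), the one with the most paraxial mesoderm marker RNA at 36 h. The part of that RNA in the ITGA5 value was not tested. With the compared groups alone the ITGA5 call was also lost, with 0 members and 0.92% of genes called in this step. ITGA5 stayed high, at 47.9, 88.5 and 71.7 TPM at P8, with a log2 fold change from t0 of 2.32 ± 0.29 (SE; adjusted p = 6.51e-07).

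ITGAV, the alpha chain shared by the vitronectin receptors, was at 23.5, 20.9 and 21.8 TPM at t0 and 40.5, 111 and 79.0 TPM at P8. The ITGAV groups did not overlap, and edgeR put the change at 1.61 ± 0.33 (SE; adjusted p = 0.000287) on the log2 scale. ITGB5, a beta partner of ITGAV, was at 122, 129 and 92.8 TPM at t0, 243, 452 and 234 TPM at P5 and 471, 463 and 341 TPM at P8. Every P8 library of ITGB5 was above every t0 library, and the log2 fold change was 1.70 ± 0.42 (SE; adjusted p = 0.00172). ITGB8, which pairs with ITGAV to bind latent TGF-beta, was at 1.28, 1.02 and 1.17 TPM at t0, 4.48, 6.37 and 4.77 TPM at 36 h and 1.82, 1.01 and 0.85 TPM at P5. The 36 h libraries did not overlap those of t0 or P5. The change to 36 h, 2.18 ± 0.64 (SE; adjusted p = 0.0247), was not called by edgeR with all libraries but was called without differentiation 1 (2.27, adjusted p = 0.00071). By edgeR the fall from 36 h to P5 was called at -2.38 ± 0.64 (SE; adjusted p = 0.00626), a call that was lost without the differentiation block. In differentiation 1 ITGB8 was at 2.13 TPM at P1 and 12.0 TPM at P2, whereas the other two were at 7.05 and 3.85 TPM at P1 and 1.60 and 0.73 TPM at P2. These are the P1 and P2 libraries that stood apart on the marker lists, and the part of those markers in the ITGB8 values was not tested.

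ITGA8, the alpha chain of the nephronectin receptor, had 0 counts in all 3 libraries at t0 and 2 to 7 counts at 36 h. At P5 it was at 2.97, 1.49 and 3.00 TPM and at P8 at 1.66, 15.8 and 1.46 TPM, where differentiation 2 stood far above the others. Against a floor of 3 counts per t0 library, ITGA8 was at least 311-fold higher at P8 by the mean of the 3 libraries, and at least 76.7-fold higher without that of differentiation 2. The P5 libraries were all above the 36 h libraries, and the fitted log2 fold change of 6.41 ± 1.46 (SE; adjusted p = 0.00184) depends on the few counts at 36 h. ITGA2B, the alpha chain of the platelet fibrinogen receptor, was at 6.43, 8.34 and 9.69 TPM at t0, 10.6, 3.92 and 5.14 TPM at 36 h, 2.93, 2.31 and 1.55 TPM at P5 and 1.63, 2.49 and 1.45 TPM at P8. The P8 libraries were all below those of t0, and the log2 fold change was -1.43 ± 0.36 (SE; adjusted p = 0.00409) between 36 h and P5 and -2.17 ± 0.37 (SE; adjusted p = 4.42e-05) between t0 and P8. Its usual partner ITGB3 stayed at or under 1.55 TPM in every library and shares exons with a read-through gene, and ITGB6, an epithelial partner of ITGAV, at or under 0.55 TPM.

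**Figure D4:**
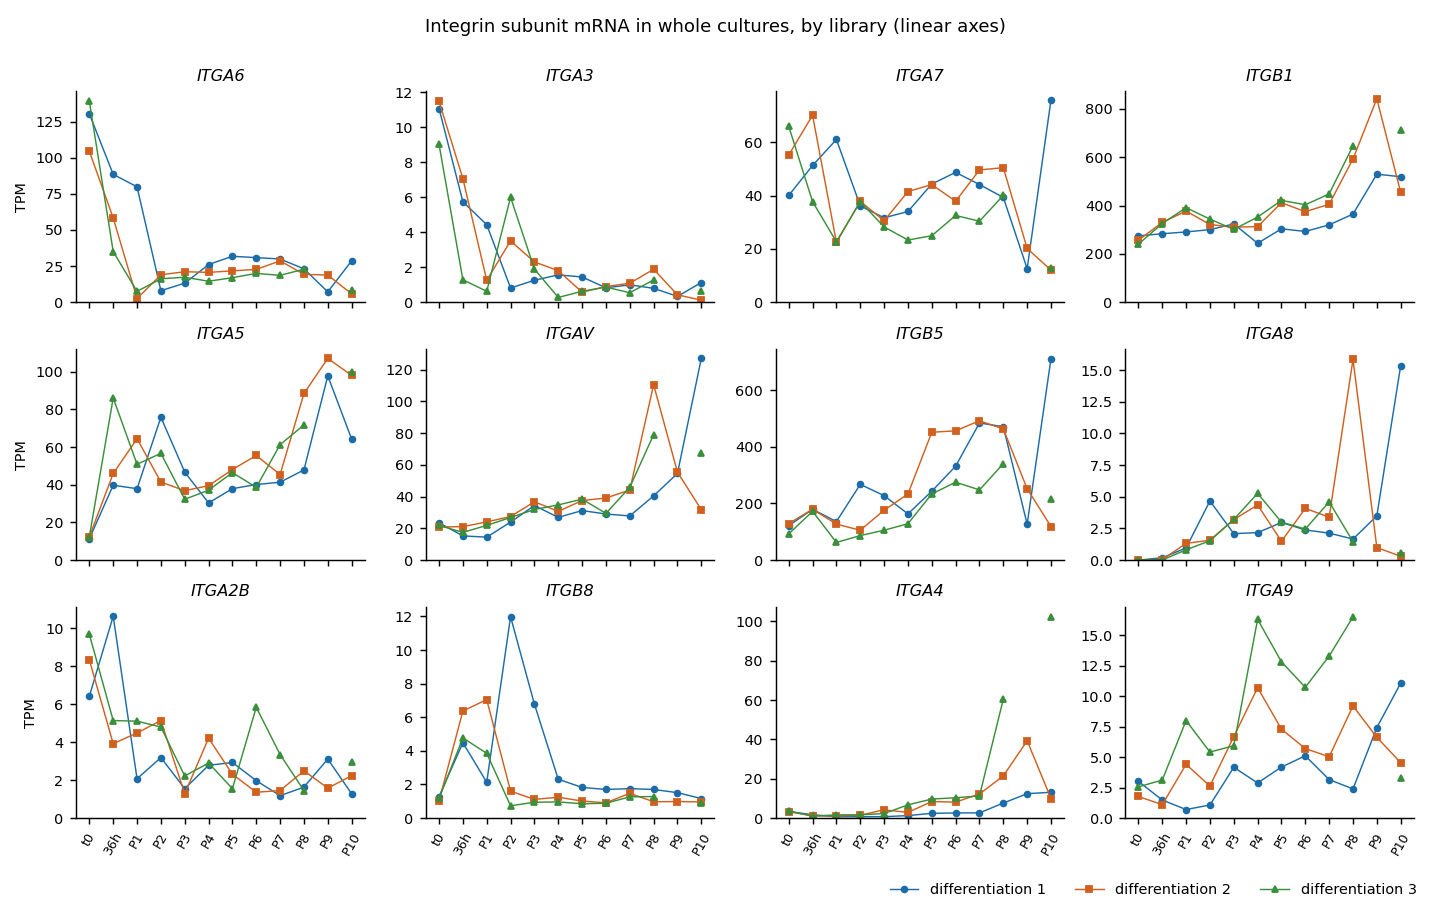
Each panel plots the TPM of 1 integrin subunit (y axis, linear and starting at 0) against the time points t0 to P10 (x axis), with 1 line for each of the 3 differentiations; the third has no P9 library. ITGA6 and ITGA3 start high and drop before P5, ITGA5 is at 39.7 TPM or more in every 36 h library, and the P10 library of differentiation 1 is the highest of its time point for ITGAV, ITGB5, ITGA7 and ITGA8.

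The collagen-binding chains stayed under 15 TPM in the t0 and P8 cultures and went higher in some other libraries, with ITGA1 at up to 27.9 TPM and ITGA11 at up to 28.7 TPM, both at P9. ITGA1 was at 5.13 to 9.12 TPM at t0 and 4.91 to 14.5 TPM at P8, ITGA2 at 3.51 to 3.97 and 0.09 to 0.89 TPM, and ITGA10 at 0.07 to 0.14 and 0.21 to 0.31 TPM. Between t0 and P8 edgeR called 0 of these chains. ITGA11, at 3.70 ± 1.06 (SE; adjusted p = 0.00557), passed the p and fold thresholds and missed the level minimum, at a mean of 99.2 normalized counts. ITGA10, at 1.43 ± 0.39 (SE; adjusted p = 0.00384), missed it too, at a mean of 14.2 normalized counts. ITGA11 was called higher with no count filter (adjusted p = 0.00638) and without differentiation 1 (adjusted p = 0.00384). ITGA2, at -3.15 ± 1.09 (SE; adjusted p = 0.0192) with an unadjusted p of 0.00811, was called lower by DESeq2, at -3.17 ± 1.02 (SE; adjusted p = 0.00475). Reads of ITGA1 may be shared with PELO, which lies within it on the same strand. ITGA4, the neural crest and leukocyte chain that binds fibronectin and VCAM1, was at 3.33, 3.21 and 3.57 TPM at t0, 1.69, 1.21 and 0.93 TPM at 36 h and 7.61, 21.4 and 60.5 TPM at P8. ITGA4 was lower at 36 h than at t0 and differed widely between differentiations at P8, where all libraries were above those of t0. The log2 fold change from t0 to P8 was 2.55 ± 0.61 (SE; adjusted p = 0.00135). Neural crest marker sums in the same P8 libraries were 133, 384 and 748 TPM, in the order of the ITGA4 values. In the P8 fractions ITGA4 was at 7.05, 22.2 and 60.6 TPM in EPI and 10.8, 22.6 and 43.9 TPM in MES. In differentiation 3 ITGA4 was higher in EPI, where the neural crest sum was lower, at 779 TPM against 1142 TPM in MES. The part of the neural crest markers in the ITGA4 result was not tested. ITGA9, which binds tenascin and VCAM1, was at 3.01, 1.77 and 2.56 TPM at t0 and 2.39, 9.21 and 16.5 TPM at P8, an overlap, with a log2 fold change of 1.53 ± 0.63 (SE; adjusted p = 0.0482). Without differentiation 1 it was 2.47 ± 0.36 (SE; adjusted p = 9.08e-05) and was called.

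The chains known from leukocytes were low apart from ITGAE. ITGAE was at 23.8 to 30.2 TPM at t0 and 46.9 to 49.0 TPM at P8, but HASPIN lies inside it on the opposite strand, and the strand setting of the counting is not given in the sources used here. Its log2 fold change of 0.63 ± 0.17 (SE; adjusted p = 0.00427) was under 2-fold. ITGAL stayed at or under 0.39 TPM, ITGB7 at or under 2.13 TPM, and ITGB2 at or under 2.69 TPM, its highest values lying between 36 h and P1. ITGB7, at 2.34 ± 0.63 (SE; adjusted p = 0.00336) between t0 and P8, passed the p and fold thresholds and missed the level minimum, at a mean of 18.5 normalized counts. The summed blood and platelet markers were 0.49 to 0.83 TPM at t0 and 0 to 0.09 TPM at 36 h.

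Read step by step, the members' calls were few. From 36 h to P5, 5 of 31 were called. LAMA4 and ITGA8 rose, where 3.77% of all genes were called higher, and ITGA2B, ITGA3 and ITGB8 fell, where 4.49% were called lower. ITGB4, at -3.21 ± 0.80 (SE; adjusted p = 0.00358), and ITGB2, at -3.81 ± 0.87 (SE; adjusted p = 0.00162), missed only the level minimum in this step. All 5 calls were lost when differentiation 2 or differentiation 3 was left out, although 3.38% and 4.6% of genes were still called. Without differentiation 1, 7 members and 8.4% of genes were called, with ITGA4, ITGA6 and ITGA9 in and ITGA2B out. With the compared groups alone, 6 members and 8.02% of genes were called, with LAMB2, LAMC3, ITGA6 and ITGA9 in and ITGA2B, ITGA3 and ITGB8 out. From P5 to P8, 0 members were called, against 0.0092% of all genes. At an unadjusted p under 0.05 there were 11 of 31 members and 13.3% of all genes (2892), and DESeq2 called 0 members and 154 genes. The t0 and 36 h samples, and the P5 and P8 samples, enter more than 1 of these comparisons, so their results are not independent of each other.

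At the latest passages the clearest change was in LAMA3 (GRCh38 chromosome 18, 23689443 to 23956222, plus strand). Its level was 0.43, 1.74 and 1.22 TPM at P8, 25.1 and 19.8 TPM at P9 and 1.84, 22.3 and 6.78 TPM at P10. The late libraries lay above the whole-culture libraries of P8, the P10 library of differentiation 1 only just. In the P8 fractions LAMA3 was at 0.66, 1.32 and 7.09 TPM in EPI and 0.5, 2.99 and 4.03 TPM in MES, so that differentiation 3 and the MES library of differentiation 2 reached the range of the late libraries. The log2 fold change of the mean of P9 and P10 against P8 was 3.60 ± 0.67 (SE; adjusted p = 0.00303). It was the 1 member called among 31, with 0.772% of all genes called higher and 0.469% called lower. Surface ectoderm markers (KRT5, TP63 and KRT14), which mark tissue known for LAMA3, summed to 0.15 to 0.94 TPM at P8 and 0.13 to 0.81 TPM at P9 and P10. For the neural crest, epithelial pre-neural and neuron lists, 0 genes were called in this comparison and the summed levels overlapped between the groups. Neural crest markers were at 133 to 748 TPM at P8 and 230.4 to 1203 TPM at P9 and P10, the epithelial pre-neural list at 162 to 695 TPM and 5.24 to 427 TPM, and neuron markers at 2.44 to 62.0 TPM and 26.2 to 168 TPM. Their part in the LAMA3 change was not tested.

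The call of LAMA3 was lost without differentiation 2 (log2 fold change 3.36, adjusted p = 0.154 by edgeR) or differentiation 3 (4.14, adjusted p = 0.0946), and when only the compared groups were fitted (3.95, adjusted p = 0.228). Without differentiation 1 altogether, LAMA3, ITGA7 and ITGA8 were called, with 4.06% of genes. Without only its P10 library, 3 members and 4.61% of genes were called: LAMA3 at 3.82 ± 0.56 (SE; adjusted p = 4.42e-05), LAMA5 at -1.85 ± 0.35 (adjusted p = 0.000665) and ITGA7 at -1.53 ± 0.28 (adjusted p = 0.000432 by edgeR). That library had 52.2 TPM of LAMA5, whereas the other P9 and P10 libraries had 5.21 to 16.0 TPM and the P8 libraries 32.5 to 57.0 TPM. For ITGA7 it had 76.0 TPM against 12.0 to 20.2 TPM in the others and 39.3 to 50.5 TPM at P8. Other members showed the same kind of split within P10, with ITGB5 at 712, 119 and 216 TPM in differentiations 1 to 3, ITGAV at 127, 31.8 and 67.4 TPM, LAMA1 at 133, 35.5 and 75.3 TPM and ITGA8 at 15.3, 0.3 and 0.55 TPM. ITGA11, a collagen-binding chain of mesenchyme, was at 0.76, 0.25 and 3.86 TPM at P8, 28.7 and 11.1 TPM at P9 and 0.7, 3.58 and 15.4 TPM at P10. The groups overlapped through the P10 libraries of differentiations 1 and 2, and the change against P8 was 2.93 ± 0.90 (SE; adjusted p = 0.0389) on the log2 scale, not called by edgeR. LAMA2 reached 10.4 and 40.8 TPM at P9 and 12.5, 8.79 and 50.3 TPM at P10, with a log2 fold change against P8 of 1.96 ± 0.72 (SE; adjusted p = 0.0785).

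Within the P5 cultures, most members differed in the same direction between the fractions in all 3 differentiations. Of 29 tested, 18 were higher and 7 lower in MES than in EPI each time, where 29% of the 18885 genes tested were higher and 30.1% lower in all 3 cultures. At the 1% threshold 0 members were called, in a comparison in which 0% of genes were called and the smallest adjusted p was 0.0139. The block in this fit was the differentiation number over P5 and P8 together, so the pairing of EPI and MES within a culture was not fully modelled. At an unadjusted p under 0.05 there were 16 members and 25.9% of all genes (4894). At an adjusted p under 5%, 5 members were called (LAMB1, LAMC1, ITGA1 and ITGA9 higher and ITGA7 lower in MES), with 2.71% of genes. DESeq2 called 6 members, the same 5 and ITGA4, with 3.64% of genes, and a fit with each culture as its own block, chosen after seeing the data, called 1 member, ITGA7, with 1.64% of genes. The median log2 fold change was 0.525 over the members and 0.00319 over all genes.

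At P5, 7 of the 9 laminin chains tested were higher in MES in all 3 cultures by normalized counts. LAMA3 was lower, at log2 ratios of -0.24, -1.24 and -0.97, but it was low in these libraries, at 12 to 57 expected counts. In TPM LAMA3 was at 0.31, 0.57 and 0.2 in EPI and 0.6, 0.36 and 0.17 in MES, so that differentiation 1 went the other way. LAMB1 was at 60.2, 125 and 124 TPM in EPI and 201, 251 and 241 TPM in MES. The fractions did not overlap, and the log2 fold change was 1.26 ± 0.27 (SE; adjusted p = 0.0312). LAMC1 was at 81.8, 141 and 169 TPM in EPI and 324, 257 and 248 TPM in MES, again without overlap, with 1.27 ± 0.29 (SE; adjusted p = 0.036). LAMA1 was at 43.6, 68.9 and 71.5 TPM in EPI and 95.8, 109 and 84.5 TPM in MES, with 0.74 ± 0.20 (SE; adjusted p = 0.0562). LAMA4 was at 1.19, 9.34 and 5.52 TPM in EPI and 5.55, 41.0 and 12.0 TPM in MES. Within cultures the MES to EPI log2 ratios of LAMA4 were 2.41, 2.24 and 1.50, all upward, but the levels of the cultures overlapped and the log2 fold change was 2.04 ± 1.09 (SE; adjusted p = 0.281). LAMC3 had log2 ratios of 3.10, 1.89 and 1.09, and LAMA2 of 3.63, 2.00 and 1.47. LAMA5 went the other way in TPM, at 22.3, 20.5 and 17.0 TPM in EPI and 19.1, 13.1 and 6.03 TPM in MES, with a log2 fold change of -0.56 ± 0.25 (SE; adjusted p = 0.21).

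Among integrins at P5, ITGA7 was at 41.7, 46.7 and 39.9 TPM in EPI and 23.7, 23.9 and 12.3 TPM in MES. All MES libraries were below all EPI libraries, with -1.21 ± 0.20 (SE; adjusted p = 0.017). ITGA6 was also lower in MES, at 19.0, 13.9 and 11.7 TPM against 33.4, 29.3 and 22.3 TPM, with -0.85 ± 0.23 (SE; adjusted p = 0.0562). ITGA9 was at 1.67, 5.17 and 8.30 TPM in EPI and 11.7, 15.5 and 19.3 TPM in MES, with 2.00 ± 0.44 (SE; adjusted p = 0.0341). ITGA1 was at 2.51, 5.79 and 5.78 TPM in EPI and 8.72, 13.2 and 11.6 TPM in MES, with 1.53 ± 0.32 (SE; adjusted p = 0.03). Neither ITGA9 nor ITGA1 overlapped between the fractions. ITGA5 was higher in MES in every culture by log2 ratios of 1.01, 0.75 and 0.46, and ITGB5 lower by -0.43, -0.68 and -1.47, with adjusted p of 0.0625 and 0.0541.

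At P8 fewer members had a single direction. Of 29 members, 13 were higher and 3 lower in MES in all 3 cultures, where 20.5% of all genes were higher and 24.3% lower. By edgeR 0 members were called, in a comparison with 0% of genes called. At an unadjusted p under 0.05 there were 6 of 29 members and 12% of all genes (2261), and DESeq2 called 0 members and 56 genes. Differentiation 1 had the widest separation for several members, with MES to EPI log2 ratios for LAMB1 of 1.53, 0.17 and 0.10, for LAMC1 of 1.25, 0.28 and 0.40 and for ITGA5 of 1.31, 0.14 and 0.28. In the same culture order the neural crest marker sums were 105, 377 and 779 TPM in EPI and 326, 496 and 1142 TPM in MES, a ratio that was also largest in differentiation 1. The epithelial list went from 645, 279 and 185 TPM in EPI to 446, 182 and 51.8 TPM in MES, a ratio that was largest in differentiation 3. The part of these markers in the member values was not tested. LAMC3 and ITGA1 had the lowest unadjusted p at P8 among members, with log2 fold changes of 2.01 ± 0.67 (SE; adjusted p = 0.334) and 1.02 ± 0.32 (SE; adjusted p = 0.318).

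A test of the difference between the passages (MES against EPI at P8 minus that at P5) called 0 members and 0% of genes. The smallest adjusted p over all genes was 0.816, with 5 members and 6.1% of all genes (1152) at an unadjusted p under 0.05, and DESeq2 called 1 gene and 0 members. ITGA7 had the lowest unadjusted p among members, with a difference in log2 fold change of 0.84 ± 0.27 (SE; adjusted p = 0.816). The smaller P8 ratios are therefore not shown to differ from those at P5.

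**Figure D5:**
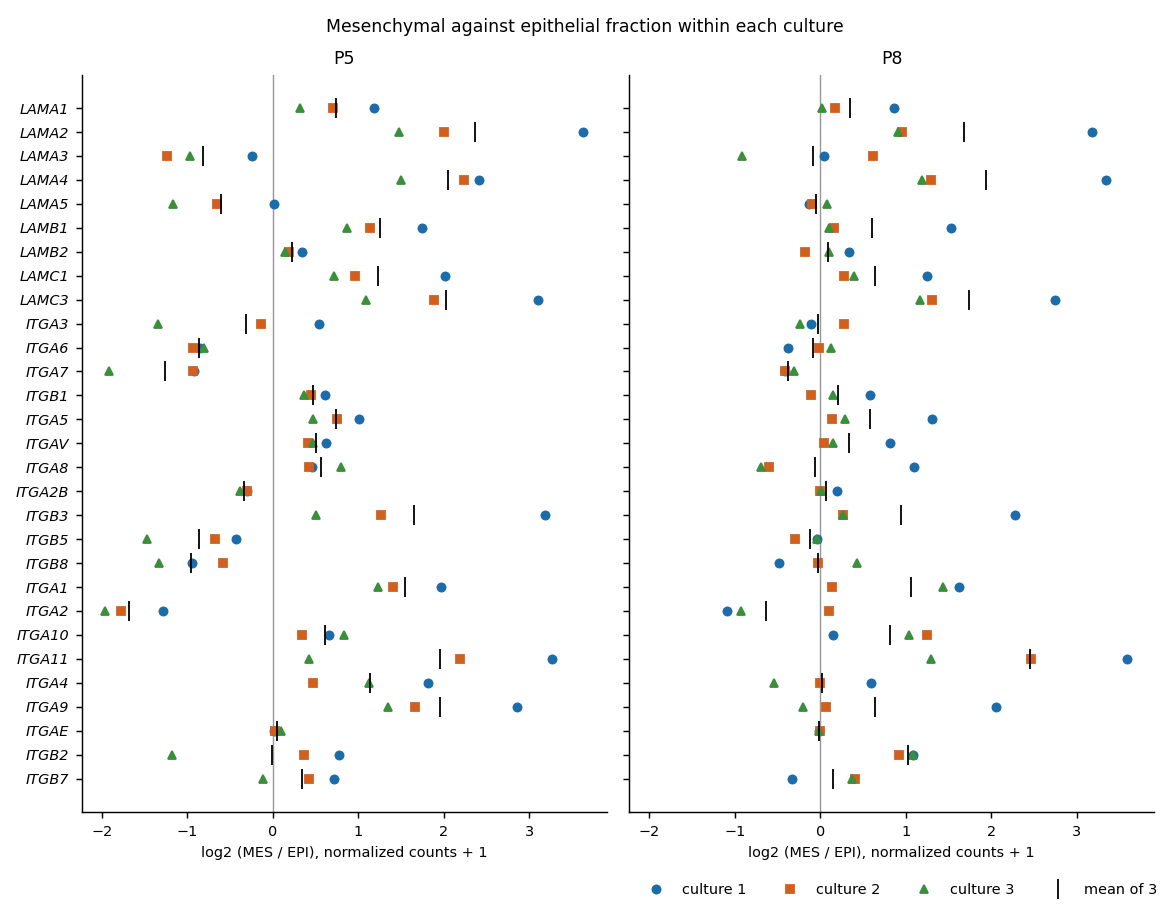
Points give the log2 ratio of MES to EPI normalized counts, each plus 1 (x axis), within each of the 3 cultures for the 29 tested members (y axis, in order of role), at P5 (left) and P8 (right), with a vertical tick for the mean. At P5 18 members lie right of 0 and 7 left of 0 in all 3 cultures, and at P8 13 and 3 do.

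Genes that work with these members were given by fixed lists, described by counts alone. Between t0 and P8, where 7.62% of all genes were called higher and 7.6% lower, 7 of 14 basement membrane partners rose and 0 fell, with NID1, the nidogen that links laminin to collagen IV, at a log2 fold change of 2.44 ± 0.28 and COL4A2, a collagen IV chain, at 1.64 ± 0.28. Of 12 other integrin ligands tested, 6 rose and 0 fell, with FN1 (fibronectin) at 3.11 ± 0.50 and TNC (tenascin C, a ligand of ITGA9) at 6.11 ± 1.07. Of 8 non-integrin laminin receptors, 1 rose and 2 fell, BCAM, a receptor for LAMA5, among the latter at -2.82 ± 0.45. Of 21 integrin-linked adhesion proteins, 4 rose and 2 fell, with PARVA, a partner of integrin-linked kinase, at 2.69 ± 0.29 and its paralogue PARVB at -2.23 ± 0.39, and with FERMT1, the kindlin of epithelia, at -4.52 ± 0.49. The medians of these 4 lists were 1.24, 2.63, -0.436 and 0.404, against 0.0215 over all genes. In the late comparison, with 0.772% of all genes called higher and 0.469% lower, COL18A1 was the basement membrane gene that fell, at -1.67 ± 0.26. CD44, mainly known as a hyaluronan receptor, was the gene of the non-integrin laminin receptor list that rose, at 5.02 ± 1.09. In the same comparison 1 of the 21 integrin-linked adhesion proteins rose and 0 fell. These late calls were lost without differentiation 2, without differentiation 3 and with the compared groups alone, where 0 genes were called. In the 36 h step, with 1.31% of all genes called higher, 1 of the 12 other integrin ligands rose, TNC at 4.75 ± 1.00. From 36 h to P5, 3.77% of all genes were called higher and 4.49% lower. In that step 4 of 14 basement membrane partners rose and 0 fell, and 3 of 12 other integrin ligands rose and 2 fell. Among the 8 non-integrin laminin receptors 0 rose and 3 fell, and among the 21 integrin-linked adhesion proteins 4 rose and 3 fell.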

How the data were processed

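The authors trimmed, aligned and quantified 47 single-end polyA libraries. The submitters' processing notes name cutadapt 1.16, STAR 2.5.2b, RSEM 1.3.0 and GRCh38, and the strand setting is not given in the sources used here. The deposited expected counts are RSEM estimates that divide reads among genes, so 9.33% were not whole, and they were rounded for testing. The deposited TPM values are the authors' length-scaled levels and were used unchanged for levels and shares. Replicates were not pooled.

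Whole cultures (35 libraries) and fractions (12 libraries) were each fitted once with edgeR 4.0.16 (R 4.3.3; filterByExpr, TMM, glmQLFit and glmQLFTest), with the differentiation number as a block, and p-values were adjusted over all genes tested. The SE printed with edgeR values was derived, as the absolute log2 fold change divided by the square root of the F statistic. DESeq2 1.42.0, which reports its own SE, was an alternative, as were other scaling, filters, thresholds and the omission of each differentiation. The design text says that every experiment held all time points and fractions. Deviations of same-numbered libraries correlated at 0.649 and 0.777 on average between MES and EPI at P5 and P8, at 0.109 between P5 and 36 h, 0.307 between P8 and P5, 0.0103 between P9 and P8, 0.243 between P10 and P8, 0.111 between P8 and t0, and -0.00723 between 36 h and t0. The code was tested on simulated counts. Libraries differed from their replicates by more than sampling noise. The members and gene lists were chosen with earlier results of these data known. All 33 members are named, with values in every library of the groups compared for those called (ITGA8 at t0 and 36 h as counts). The P8 against t0 comparison was added after the data had been seen.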

Additional observations from a re-analysis of the deposited data

Results flagged for a closer look

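ITGAE was flagged because its MES to EPI ratio had opposite signs in all 3 cultures of each passage, with a mean log2 ratio of 0.0423 at P5 and -0.00961 at P8. Both values are close to 0. The edgeR test of the difference between the passages gave -0.06 ± 0.11 (SE; adjusted p = 0.956) for ITGAE, which did not pass the threshold.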

How the results depend on the processing

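The log2 fold changes of the called members kept their direction under every alternative run. Leaving out all libraries of 1 differentiation in turn gave 83 to 874 genes and 0 to 2 members called for 36 h against t0 (578 and 1 with all libraries). It gave 762 to 1888 genes and 0 to 7 members for P5 against 36 h (1797 and 5). The ranges were 0 to 97 genes and 0 to 1 members for P8 against P5 (2 and 0), 0 to 914 genes and 0 to 3 members for P9 and P10 against P8 (270 and 1), and 2072 to 3674 genes and 5 to 17 members for P8 against t0 (3311 and 13). Fewer libraries enter each of these fits. Without the P10 library of differentiation 1 the late comparison had 1000.0 genes and 3 members.

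At an adjusted p under 5%, 36 h against t0 had 947 genes and 2 members, P5 against 36 h 2225 genes and 8 members, P8 against P5 39 genes, the late comparison 781 genes and 2 members, and MES against EPI at P5 511 genes and 5 members. With no minimum level, P5 against 36 h had 2948 genes and P8 against t0 5430.0 genes. With the compared groups alone, P5 against 36 h had 1432 genes and 6 members, P8 against t0 3375 genes and 12 members, 36 h against t0 168 genes and 0 members, P8 against P5 0 genes, and the late comparison 0 genes and 0 members. DESeq2 called 154 genes for P8 against P5, 732 genes and 2 members for the late comparison, 867 genes and 2 members for 36 h against t0, 688 genes and 6 members for MES against EPI at P5, 56 genes at P8 and 1 gene for their difference. Without the count filter 82 genes were called for MES against EPI at P5. The cause of these differences was not tested.

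Without the replicate block, P8 against P5 had 0 genes called, the late comparison 37, 36 h against t0 440.0, P5 against 36 h 1643, and P8 against t0 3196. The members called without this block were 1, 4, 0, 1 and 12 for 36 h against t0, P5 against 36 h, P8 against P5, the late comparison and P8 against t0. With each culture as its own replicate block, 309 genes and 1 member were called for MES against EPI at P5. Depth limits ITGB3, ITGB6, ITGAL and LAMB3, which had few counts. With 3 libraries a group and 1 cell line, the p-values measure spread within that line only. In the main fits this is the spread left after the differentiation block, estimated over all libraries of the fit.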
